A study of Mus musculus with 2 samples.

Results

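Chromatin accessibility was examined at the genes that encode potassium channels and their accessory subunits in the mouse adrenal gland. The set held every protein-coding gene of GENCODE M21 whose symbol begins with Kcn, without Kcnk3, Kcnk9 and Kcnj5, and came to 91 of 21938 protein-coding genes on chromosomes 1 to 19, X and Y. The samples were 2 DNase-seq libraries of whole adrenal gland, biological replicates 1 and 2 of 1 group. Both came from females 10 days of age of B6CASTF1/J, a first-generation cross of C57BL/6J and CAST/EiJ mice, and the labels name 3 females for each sample. No treatment, engineered allele or second condition was part of the design, so each value is given for both replicates and compared with all coding genes.

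DNase I cuts DNA where nucleosomes are displaced, and a peak of cuts marks a stretch of open chromatin such as a promoter or an enhancer. A footprint is a short stretch inside a peak that is cut less than its surroundings, as happens where a protein covers the DNA. Potassium channels let potassium leave or enter the cell along its gradient and so set the resting membrane potential. In the adrenal cortex this potential links blood potassium and angiotensin II to aldosterone release, and in the chromaffin cells of the medulla it shapes the action potentials that release catecholamines. A functional channel is built from pore-forming subunits, alone or with silent or auxiliary subunits that change its gating or its delivery to the membrane.

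Replicate 1 had 98813 peaks and 339116 footprints, and replicate 2 had 55135 peaks and 241536 footprints. A peak was called shared where peaks of both replicates overlapped by at least 1 bp, which gave 48355 shared peaks. The peak height is a signal normalised by the authors, and it was higher in replicate 1 at 93.0% of shared peaks, with a median log2 ratio of 0.73. Markers of the steroid-making cortex had a shared promoter peak in 6 of 8 genes, those of chromaffin cells in 6 of 8, those of the capsule and fibroblasts in 4 of 6 and those of endothelium in 2 of 6. Heights in replicates 1 and 2 were 3.58 and 1.25 at Star, 3.74 and 1.87 at Cyp11a1, 3.24 and 2.09 at Nr5a1, 8.16 and 4.91 at Scarb1, 5.23 and 2.14 at Mrap and 1.51 and 0.812 at Cyp11b1, and Mc2r and Cyp21a1 had a peak in replicate 1 only. Markers of brown and white fat had a shared peak in 4 of 5 genes, Schwann cells in 3 of 5, skeletal and cardiac muscle in 3 of 5, brain neurons in 4 of 5, kidney in 1 of 5 and myeloid cells in 0 of 5. The fat and brain neuron shares were as high as that of the cortex, and 63.6% of all coding genes had a shared promoter peak, so these counts do not single out the adrenal gland. The part of other cell types in the results was not tested.

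A shared peak lay within 1 kb of an annotated start of 54 of the 91 potassium channel genes (59.3%), against 63.6% of all coding genes. The order of these shares was reversed with a longer, less strict peak list and with the shorter list of each replicate alone. A further 10 genes had a promoter peak in replicate 1 only (11%, against 3.65% of all coding genes) and 4 in replicate 2 only (4.4%, against 0.638%). Kcnk6 had a peak in each replicate, with heights of 0.963 and 0.731, that did not overlap. The remaining 22 genes had no promoter peak in either short list. In bulk tissue, a gene open in fewer cells and a gene less open in each cell cannot be told apart.

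The open promoters of the channel genes were low. Over the 54 genes with a shared peak, the median height of the highest promoter peak was 1.86 in replicate 1 and 1.28 in replicate 2, against 5.94 and 3.10 over all 13948 coding genes with such a peak. Of the 54, 40 (74.1%) were in the lowest quartile of promoter heights in both replicates, against 22.3% of all genes. Only 5 channel genes in replicate 1 and 7 in replicate 2 reached the median of all coding genes. The heights ranked alike in the replicates, with a Spearman rho of 0.92 across the 54 genes and 0.94 across all 13948, where genes share the library and are not independent replicates.

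**Figure D1:**
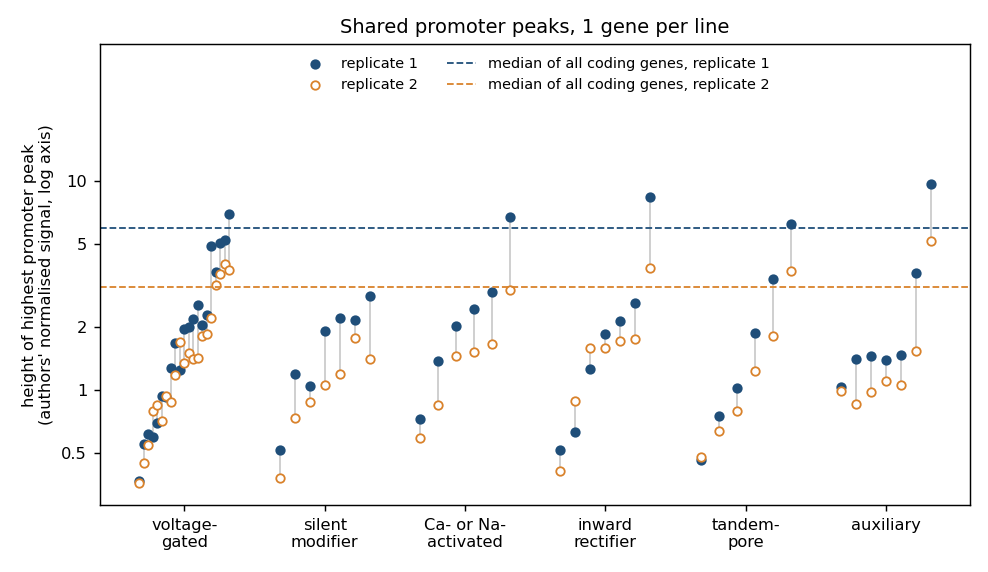
Height of the highest shared promoter peak of each of the 54 channel genes (vertical axis, authors' normalised signal, log scale), by role, with filled points for replicate 1, open points for replicate 2 and a line joining the pair. Dashed lines give the medians of all coding genes, 5.94 and 3.10, and most channel genes of every role lie below them.

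The highest promoters belonged to channels of different roles. The sequences of 3 of them are shown because footprints of both replicates covered distinct stretches in each. They are written on the strand of the gene in build mm10, without annotated untranslated bases, and capitals mark bases inside a footprint in both replicates. The Kcnj2 stretch is chr11:111065961-111066163, the plus strand, the upstream part of the peak at the 5' start. The Kcnh1 stretch is chr1:192190641-192190773, the plus strand. The Kcnk5 stretch is chr14:20181810-20181940, the minus strand.
Kcnj2: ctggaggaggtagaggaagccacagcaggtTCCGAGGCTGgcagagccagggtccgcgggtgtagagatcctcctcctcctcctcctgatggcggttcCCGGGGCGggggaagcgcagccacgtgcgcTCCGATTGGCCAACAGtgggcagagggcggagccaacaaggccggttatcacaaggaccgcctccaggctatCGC
Kcnh1: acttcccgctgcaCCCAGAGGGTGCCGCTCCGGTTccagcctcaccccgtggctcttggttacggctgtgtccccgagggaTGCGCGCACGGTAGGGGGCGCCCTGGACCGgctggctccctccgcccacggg
Kcnk5: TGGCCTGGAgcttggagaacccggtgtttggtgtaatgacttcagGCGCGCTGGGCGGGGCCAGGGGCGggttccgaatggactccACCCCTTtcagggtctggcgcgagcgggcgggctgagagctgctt
Capitals covered 37 of the 203 bases shown for Kcnj2, 52 of 133 for Kcnh1 and 40 of 131 for Kcnk5.

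Among the pore-forming voltage-gated channels, which open on depolarisation, 21 of 30 genes had a shared promoter peak, with median heights of 1.95 and 1.41. Kcnh1, an ether-a-go-go channel, was highest in replicate 1, with heights of 6.92 and 3.73 in replicates 1 and 2. Kcnc1, a fast-activating channel, reached 3.67 and 3.16, and Kcnh2, the gene of the rapid delayed rectifier of the heart, reached 4.85 and 2.21. The Kcna genes, mouse counterparts of the fly Shaker channel, had a shared peak in 5 of 8 genes, with medians of 0.695 and 0.843 that were the lowest of the groups with at least 5 such genes. Kcna1 had the lowest promoter peak of the whole set, with 0.368 and 0.359, and it lay at an internal start.

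The ether-a-go-go group was divided evenly between genes with a shared peak and genes with a peak in 1 replicate only. Kcnh1, Kcnh2, Kcnh3 and Kcnh6 had shared peaks, Kcnh4 and Kcnh5 had a peak in replicate 1 only (1.32 and 0.394), and Kcnh7 and Kcnh8 in replicate 2 only (0.304 and 0.267). Kcnh4 at 1.32 was the highest peak found in 1 replicate alone, and in the longer peak list it was shared, with 1.32 and 1.07. Kcna10, Kcna6 and Kcnd1 also had a peak in replicate 1 only, with 0.488, 0.381 and 0.455. Kcna5 had no promoter peak in either replicate. Kcnq3, a subunit of the neuronal M-current, had a shared peak with heights of 2.53 and 1.41.

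**Figure D2:**
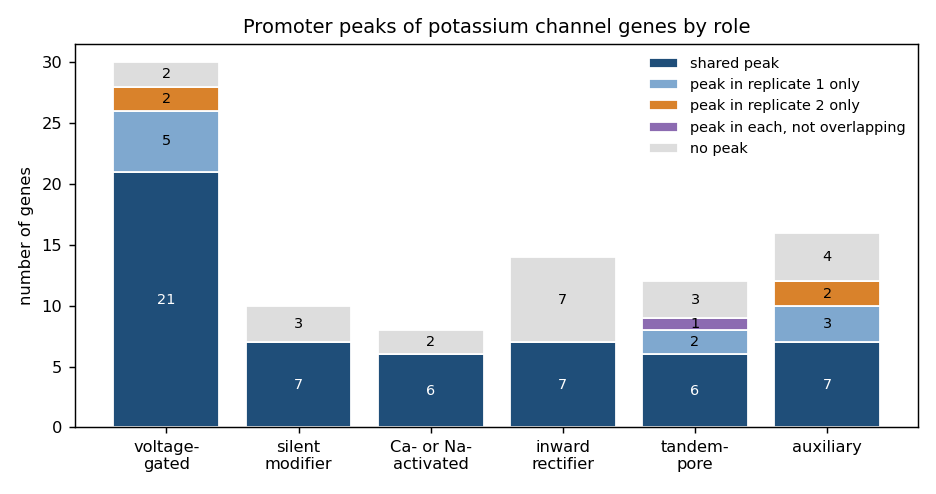
Number of channel genes (vertical axis) by role, split into those with a promoter peak shared by both replicates, in replicate 1 only, in replicate 2 only, in each without overlap, and none. Shared peaks were found in 21 of 30 voltage-gated and 7 of 14 inward rectifier genes; Kcnrg, which has no shared peak, is not drawn.

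Silent modifier subunits form no channel alone and join pore-forming voltage-gated subunits in mixed tetramers. A shared promoter peak was present in 7 of 10, with median heights of 1.91 and 1.05. Kcng3 was highest by the mean of both replicates, at 2.81 and 1.41, and its peak of 1780 bp was the widest of all 54. Kcns2 reached 2.15 and 1.77, and Kcns3 reached 2.21 and 1.20. Kcng4, Kcns1 and Kcnv2 had none.

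The calcium- or sodium-activated channels couple membrane potential to the cell's ion load, and 6 of 8 had a shared promoter peak, with medians of 2.23 and 1.48. Kcnn2, a small-conductance calcium-activated channel, was highest, with 6.69 and 3.01, at an internal start 290609 bp from the 5' start that is also within 1 kb of the start of AC121957.1. Kcnn1 (2.93 and 1.65) and Kcnn3 (2.45 and 1.51), its close relatives, followed. Kcnma1, the pore of the large-conductance BK channel of chromaffin cells, had 2.01 and 1.45 in a peak 1160 bp wide, at an internal start 9632 bp from the 5' start. Kcnn4, the intermediate-conductance channel, and Kcnu1, the sperm channel, had no promoter peak.

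Inward rectifiers pass potassium more readily into than out of the cell and hold the resting potential. Of the 14, 7 had a shared promoter peak and 7 had no peak in the short list of either replicate. In the longer list Kcnj3 had a shared peak (0.247 and 0.328) and Kcnj16 a peak in replicate 1 (0.194). Kcnj2, a strong inward rectifier, had the highest peak of the class at 8.39 and 3.84. Kcnj10, known from glia, reached 2.59 and 1.75. The pores of the ATP-sensitive channel, Kcnj8 (2.13 and 1.71) and Kcnj11 (1.84 and 1.58), both had shared peaks, while the receptor subunits that pair with them, Abcc8 and Abcc9, had a peak in replicate 2 only. Of the G protein-gated subunits in the set, Kcnj6 had a low peak (0.515 and 0.409) and Kcnj3 and Kcnj9 had none. Kcnj1, Kcnj13, Kcnj14, Kcnj15 and Kcnj16 had none either, and all 5 lay in the lowest tercile of genes by CpG content at the start.

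Tandem-pore-domain channels carry background leak currents, and 6 of 12 had a shared promoter peak, with medians of 1.44 and 1.01. Kcnk5, an acid-sensitive leak channel, stood highest with 6.18 and 3.70. Kcnk12 and Kcnk13, which form a related pair, followed with 3.40 and 1.81 and with 1.87 and 1.23. The mechanically gated Kcnk2 and Kcnk10 were low, at 1.02 and 0.793 and at 0.461 and 0.477, both at internal starts. Kcnk16 (0.729) and Kcnk4 (0.662) had a peak in replicate 1 only, and Kcnk15, Kcnk18 and Kcnk7 had none.

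Auxiliary subunits do not form the pore, and 7 of 16 had a shared promoter peak, the lowest share of the 6 classes with the shorter lists. That rank depended on the list. With the longer one 11 of 16 had a shared promoter peak, against 8 of 14 inward rectifiers and 7 of 12 tandem-pore-domain genes. Kcnab2, a cytoplasmic beta subunit of Kcna channels, had the highest promoter peak of all 91 genes by GENCODE starts, with 9.61 and 5.16. That peak, chr4:152477461-152477980, was also within 1 kb of a start of Nphp4, so its height cannot be assigned to Kcnab2 alone. It held 150 bases that were footprinted in both replicates, the most of any member's GENCODE promoter peak, while Kcnn2 had 87 and Kcnh1 and Kcnk12 had 63 each. Kcnab3 (3.63 and 1.54) and Kcnip4 (1.46 and 1.05), a calcium-binding partner of Kcnd channels, came next in the class. The single-pass Kcne subunits had a shared peak in 1 of 5 genes, Kcne3 (1.40 and 0.855), and the Kcnmb subunits of the BK channel in 1 of 4, Kcnmb4 (1.04 and 0.992). Kcne4 (1.04), Kcnip1 (0.441) and Kcnab1 (0.348) had a peak in replicate 1 only, and Kcnmb2 (0.421) and Kcne1l (0.372) in replicate 2 only. Kcne1, Kcne2, Kcnmb1 and Kcnmb3 had no promoter peak, and neither did Kcnrg, which encodes a regulator that is no channel subunit.

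The highest promoter peak of 9 members was also within 1 kb of a start of another gene. Beside Kcnab2 and Kcnn2 these included Kcnd3, Kcnq3, Kcnmb4, Kcng2, Kcnk2 and Kcnma1. No share over all coding genes is given for this count, so it is not read as high or low. In 8 of the 54 (14.8%, against 7% of all genes with a shared promoter peak) no peak lay within 1 kb of the 5' start and the peak was at an internal start only. These were Kcna1, Kcne3, Kcnip2, Kcnip3, Kcnk10, Kcnk2, Kcnma1 and Kcnn1, so 3 of the 7 open auxiliary genes were open at a start inside the gene.

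CpG content at the 5' start tracked the presence of the peaks and, more loosely in the members than in all genes, their height. The Spearman rho of CpG content with height was 0.28 and 0.37 in replicates 1 and 2 over the 54 members. Over all 13948 coding genes with a shared promoter peak it was 0.41 and 0.44. All coding genes were split into terciles by the observed over expected CpG ratio within 500 bp of the 5' start. A shared promoter peak was found in 5 of 27 channel genes of the low tercile (18.5%, against 17.6% of all genes), 30 of 42 of the middle tercile (71.4%, against 76.0%) and 19 of 22 of the high tercile (86.4%, against 97.1%). The channel genes had a median ratio of 0.47, against 0.55 over all genes. Open genes of the low tercile included Kcne3, Kcnip3 and Kcnma1, whose peaks lay at internal starts only, outside the window of the ratio. Heights of the channel genes were low within each tercile as well. In the high tercile the medians were 2.15 and 1.54, against 7.70 and 3.81 for all genes. Over the 54 genes, 49 in replicate 1 (90.7%) and 48 in replicate 2 (88.9%) lay below the median of all genes of the same tercile, where 49.9% of all genes do.

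**Figure D3:**
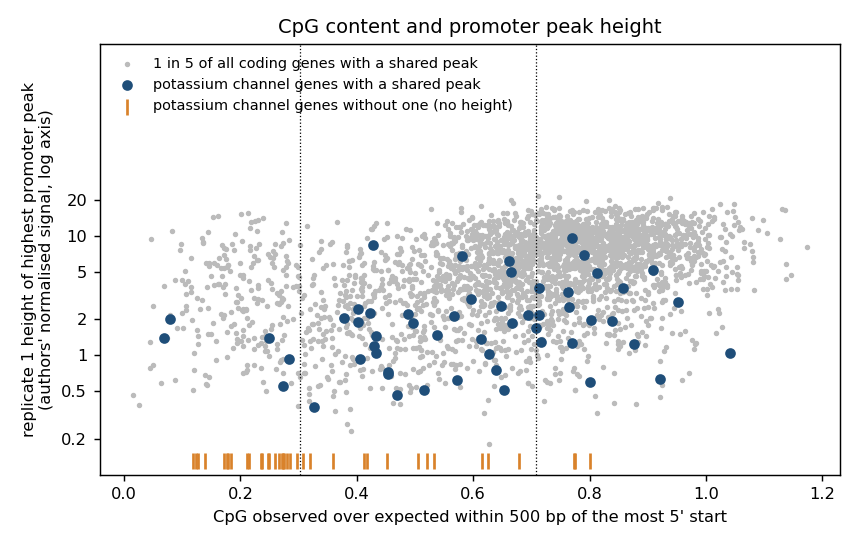
Replicate 1 height of the highest shared promoter peak (vertical axis, authors' normalised signal, log scale) against the CpG observed over expected ratio (horizontal axis), for channel genes (dark points) and 1 in 5 of all coding genes (grey). Dotted lines divide the terciles, and ticks at the bottom mark the 37 channel genes without a shared peak, most of which lie in the low tercile.

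The members without a shared peak were not all closed. The authors' lists of bases with an FDR under 0.05 held a base within 1 kb of a start in both replicates for 68 of the 91 genes (74.7%, against 68.5% of all coding genes). Of the 37 genes without a shared peak, 14 had such a base in both replicates, 5 in replicate 1 only, 2 in replicate 2 only and 16 in neither. Those 16 were 17.6% of the 91 genes, against 26.8% of all coding genes with no such base. No share over all coding genes without a shared peak is given, so the split of the 37 is not read as high or low. In the high CpG tercile 2 of 22 members had none (9.09%), Kcnk15 among them, against 59 of 7313 coding genes (0.807%). In the longer, less strict peak list 67 of the 91 genes had a shared promoter peak (73.6%, against 67.7%). The 13 genes gained included Kcna5, Kcnj3, Kcnk6 and Kcne4.

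Footprints called in both replicates lay inside a shared promoter peak of 49 of the 91 genes (53.8%, against 61.1% of all coding genes). The 5 open genes without a shared footprint were Kcna4, Kcnc4, Kcng1 and Kcnv1, whose footprints in each replicate did not overlap, and Kcnk10, with a footprint in replicate 2 only.

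Relative to all shared peaks, most channel promoters were higher in replicate 2. After subtraction of the median log2 ratio of all shared peaks (0.73), the ratio of replicate 1 to replicate 2 had a median of -0.27 over the 54 members, with 13 above 0 and 41 below, against 0.19 over all coding genes. The ratio also rose with height over all shared peaks, from a median of 0.35 in the lowest decile to 1.12 in the highest. Centred on all shared peaks of the same decile of height, the members had a median of -0.20, with 14 above 0 and 39 below. Centred instead on promoter peaks of the same decile of height, the members had a median of 0.0042, with 27 above and 27 below, a centring chosen after the data were seen. In 7 of the 54 (13.0%, against 3.18%) the peak was higher in replicate 2 even before centring, among them Kcnj12, Kcnd3, Kcnc4, Kcnj4, Kcna4 and Kcnk10. Kcnj12 had heights of 0.628 and 0.880, a centred ratio of -1.22, and Kcnd3 had 1.24 and 1.69, a centred ratio of -1.17. The centred ratios of Kcnc4 (-1.15), Kcnj4 (-1.07) and Kcna4 (-1.01) came next. At the other end stood Kcnab3 at 0.51, Kcnn2 at 0.42, Kcnj2 and Kcnh2 at 0.40 each and Kcng3 at 0.26.

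**Figure D4:**
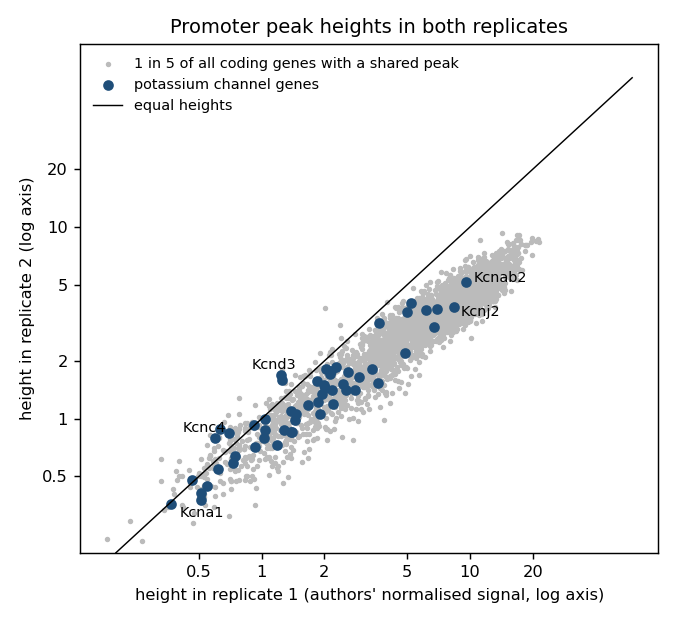
Height of the highest shared promoter peak in replicate 2 against replicate 1 (both axes authors' normalised signal, log scale) for the 54 channel genes (dark) and 1 in 5 of all coding genes (grey), with the line of equal heights. Kcnd3 and Kcnc4 are among the 7 channel genes above the line.

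Distal peaks were shared peaks over 1 kb from every annotated start and within 50 kb of the 5' start of a member. At least 1 was found for 62 of the 91 genes (68.1%, against 65% of all coding genes), with a mean of 1.95 per gene against 1.61 and a median of 2 against 1. Among genes without a shared promoter peak, 26 of 37 members (70.3%) had a distal peak, against 47.9% of all such genes. Among genes with a shared promoter peak the order was opposite, with 36 of 54 members (66.7%) against 74.8%. The 177 gene and peak pairs came from 165 peaks, of which 12 lay near a pair of members: 7 near Kcnj9 and Kcnj10, 3 near Kcne1 and Kcne2, 1 near Kcna10 and Kcna2 and 1 near Kcnip1 and Kcnmb1. Median heights of the 165 were 1.66 and 1.02, against 1.5 and 0.874 over all 26639 shared distal peaks. Of the 165, 76 lay in introns, 18 in exons and 71 between genes, 41 were inside the member itself and 64 had a member as the nearest start. No such split over all shared distal peaks is given, so these counts are not read as high or low. The target gene of a distal peak was not measured.

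Kcnn1 had the most distal peaks, 9, and Kcne4 had 8, Kcnj9 and Kcnj10 had 7, Kcnab2, Kcne1 and Kcnk15 had 6, and Kcne2 and Kcnn4 had 5. The first place depended on the annotation: 2 of the 9 lay within 1 kb of a RefSeq start of Kcnn1, which leaves 7, while none of the 8 near Kcne4 lay within 1 kb of a RefSeq start. Of all coding genes, 148 had 9 or more, and the highest count was 17. At least 5 distal peaks were found near 1592 of the 21938 coding genes, and how many of these lacked a shared promoter peak is not given. Kcne4, Kcne1, Kcne2, Kcnj9, Kcnk15 and Kcnn4 stood among the members with the most distal peaks, and none had a shared promoter peak in the shorter lists. Kcne4 had one in the longer list (1.04 and 0.496), and Kcnj9 and Kcnn4 had one within 2 kb of a start. Kcnj9 and Kcnj10 start 11.9 kb apart on chromosome 1, so their 7 peaks are the same 7. The highest of these, chr1:172310101-172310400 in an intron of Igsf8, had heights of 4.65 and 2.81. Of the 8 peaks near Kcne4, 6 lay in introns of Gm29536, with heights between 0.495 and 1.30 in replicate 1 and between 0.397 and 0.626 in replicate 2. Of the 5 near Kcnn4, the peak at chr7:24387360-24387551 differed most between the replicates, with 4.10 and 1.02, a centred log2 ratio of 1.27.

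The highest distal peak near any member lay upstream of the 5' start of Kcnn1, centred at -2473 bp, at chr8:70865501-70865960, with heights of 11.5 and 5.89. These exceed the heights of every GENCODE promoter peak of the 91 genes, and the peak held 10 shared footprints. Its sequence is shown on the minus strand, that of Kcnn1, over chr8:70865692-70865960 in mm10, with the 120 bases footprinted in both replicates in capitals.
Kcnn1 upstream peak: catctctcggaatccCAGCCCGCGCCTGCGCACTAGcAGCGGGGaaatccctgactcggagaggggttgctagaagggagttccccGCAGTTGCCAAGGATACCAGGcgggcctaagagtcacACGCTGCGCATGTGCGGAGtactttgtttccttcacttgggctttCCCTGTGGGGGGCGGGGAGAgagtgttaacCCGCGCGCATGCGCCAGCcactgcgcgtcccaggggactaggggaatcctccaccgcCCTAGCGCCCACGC
The peak is distal by GENCODE M21 but lies within 1 kb of a start of Kcnn1 in RefSeq, and so does its neighbour at chr8:70864971-70865195 (0.862 and 0.893). By RefSeq the upstream peak was thus the promoter peak of Kcnn1 and the highest of the 91 genes, above those of Kcnab2 and Kcnn2. With RefSeq starts, for which all 91 genes matched, 54 members again had a shared promoter peak, with Kcnip1 gained and Kcna1 lost. Of the 165 distal peaks, 12 were within 1 kb of a RefSeq start, among them peaks at starts of Kcng3, Kcnh2 and Kcnj4. The peak upstream of Kcnj4, chr15:79511581-79511780, had heights of 4.46 and 2.63, against 1.26 and 1.59 at the GENCODE promoter.

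**Figure D5:**
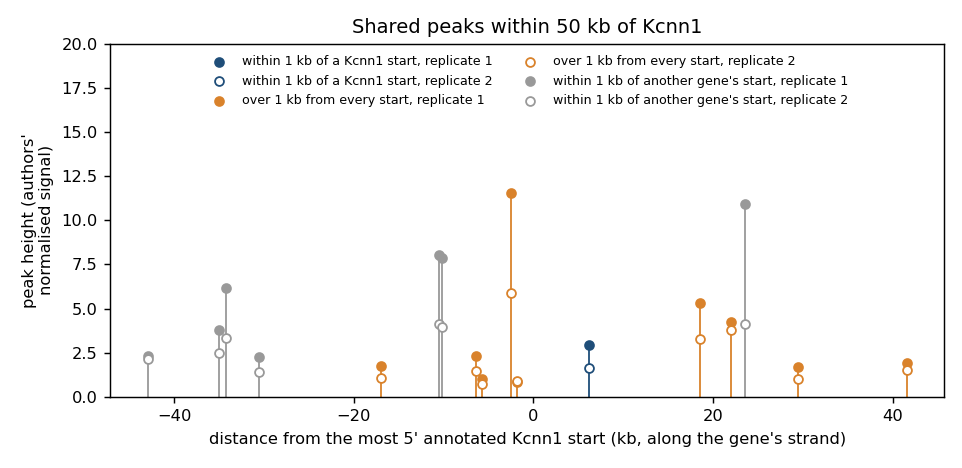
Heights of all shared peaks (vertical axis, authors' normalised signal, filled for replicate 1 and open for replicate 2) within 50 kb of the most 5' GENCODE start of Kcnn1, by distance along the gene's strand in kb. The 9 distal peaks, the promoter peak at an internal start and the 7 peaks at starts of other genes are coloured apart, and the peak at 2.5 kb upstream is the highest in both replicates.

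The peaks were searched on both strands for 6 motifs. TGACGTCA, the cyclic AMP response element, was in 1 of 84 promoter peaks of the members (1.19%, against 2.87% of all 19694 shared promoter peaks). It was in 0 of 165 distal peaks, against 0.518% of all distal peaks. TGANTCA, the AP-1 motif, was in 1 promoter peak (1.19%, against 5.46%) and 19 distal peaks (11.5%, against 11.8% of all distal peaks). CAAGGTCA, which binds the steroidogenic factor SF-1, was in 1 promoter peak (1.19%, against 1.57%) and 6 distal peaks (3.64%, against 3.42%). CACGTG, the E-box, was in 5 promoter peaks (5.95%, against 10.9%) and 6 distal peaks (3.64%, against 4.90%). GGGCGG, the GC box, was in 63 promoter peaks (75.0%, against 67.4%) and 24 distal peaks (14.5%, against 13.1%). The distal shares of AP-1, SF-1 and the GC box were near those of all distal peaks. The promoter peaks of the members had a median width of 330 bp and a median GC content of 68.2%, against 339 bp and 65.0% for all, so differences in motif counts come with a difference in base composition.

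The RE1 element, bound by REST, a repressor of neuronal genes outside the nervous system, was in 2 promoter peaks (2.38%, against 0.462%) and 3 distal peaks (1.82%, against 0.777%) of the members. All 5 matches overlapped a footprint in both replicates. Of all shared peaks with an RE1 match, 82.4% of the 91 promoter peaks and 93.2% of the 207 distal peaks had such an overlap. In 4 of the 5 matches of the members the footprints of both replicates covered all 17 bases, and in Kcnj6 they covered 10. Such full coverage was found in 50.5% of all promoter peaks and 54.6% of all distal peaks with an RE1 match. Those of Kcnt1, Kcnj6, Kcnd3 and Kcnh2 are shown to compare the letters of the match. Each is written on the strand of the match in mm10, with the match in capitals and 20 bases on each side where no untranslated base is included. The Kcnt1 match lay in an intron 350 bp downstream of the start (chr2:25864076-25864092, minus strand). The Kcnj6 match lay in an intron at chr16:94995719-94995735 (minus strand), the Kcnd3 match in an intron at chr3:105487358-105487374 (plus strand) and the Kcnh2 match upstream, at -6017 bp, at chr5:24357613-24357629 (minus strand). The stretches printed with flanking bases are chr16:94995699-94995755, chr3:105487338-105487394 and chr5:24357593-24357649.
Kcnt1: CTCAGCACCGCGGACAG
Kcnj6: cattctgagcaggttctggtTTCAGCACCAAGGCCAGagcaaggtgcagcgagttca
Kcnd3: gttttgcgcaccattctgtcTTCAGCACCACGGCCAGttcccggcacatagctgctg
Kcnh2: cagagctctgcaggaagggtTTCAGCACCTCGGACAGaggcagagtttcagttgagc
The peaks that held them had heights of 0.856 and 0.979 for Kcnt1, 0.742 and 0.576 for Kcnj6, 0.722 and 0.564 for Kcnd3 and 2.61 and 1.21 for Kcnh2. A match describes these letters of the reference assembly and does not show that REST was bound.

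Genes that work with potassium channels were examined in the same way. Of 36 such genes outside the set, 28 had a shared promoter peak (77.8%, against 63.6% of all coding genes), with median heights of 2.65 and 1.99, below the 5.94 and 3.10 of all coding genes. Accessory proteins of the channels had one in 5 of 9 genes, the cyclic nucleotide-gated pacemaker channels in 3 of 4, the sodium-potassium pump in 6 of 7, potassium-coupled chloride transport in 5 of 5, its kinases in 5 of 6 and the calcium channels of aldosterone cells in 4 of 5. The pump subunit Atp1b3 (17.5 and 8.74) stood above every channel gene in both replicates. Among the channels' own accessory proteins, Lrrc52 was highest in replicate 1 (2.83 and 1.22) and Amigo1 in replicate 2 (1.89 and 1.85).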

How the data were processed

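DNase-seq of adrenal gland from 2 samples was analysed, each with a shorter and a longer peak list, footprints and FDR values by base. The listing deposited with the files derives each from 1 sample's own mm10 alignments, so replicates were not pooled; aligner and callers: not given in the sources used here. The peak height in the deposited lists is a signal that the authors normalised in a way not stated. In each list 100% of these signal values were whole multiples of 1 step (0.00668 in replicate 1, 0.00620 in replicate 2) within 5% of a step. Members' heights were 55 to 1438 steps (median 278) in replicate 1 and 58 to 832 (median 207) in replicate 2; whether a step is 1 read is not known, so no counting interval is given. The deposited FDR lists give adjusted p-values under 0.05 per base, and every row of the authors' footprint lists carries the p-value 0.01.

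The shorter list of each replicate was used, and peaks were joined where they overlapped by 1 bp. A gene's height is that of its highest shared peak within 1 kb of any GENCODE M21 start. Each comparison is a description over 2 samples of 1 group, with no test and no p-value, and the spread is that between these 2 samples; the labels call them biological replicates but give both the same donor identifier, so whether they came from separate animals or litters is not known. Sequences and RefSeq starts are from GRCm38.p6, the assembly of mm10. All printed letters and motif matches are those of this reference, and the alleles of the parental strains were not told apart. Overlaps used Python 3.11.15, numpy 2.4.6, pysam 0.24.0 and bedtools 2.31.1, and the overlap code was tested on simulated data. Genes were named by rule: the 10 highest promoters, the 3 highest per role, those open in 1 replicate, those without a peak, the 8 with the most distal peaks (9 with ties), the 5 with the most footprinted bases and the 5 highest and 5 lowest replicate ratios. Some genes, loci and sequences that the rule takes in are not reported here. Others named were chosen after their values were seen. The members and lists were chosen with earlier results of these data known. Alternatives were another window, start, peak list, overlap and centring, and each replicate alone.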

Additional observations from a re-analysis of the deposited data

How the results depend on the processing

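Of the counts recomputed under alternatives, 61 were within 1.5 times the reported count. Those that were not, and every alternative value of the replicate ratio, follow. A count within this limit could still change its order against all coding genes, as the share with a promoter peak did. With the 50% highest peaks of each replicate, shared promoter peaks remained at 31 of 91 members, against 55.9% of all coding genes. Among these were 13 voltage-gated, 3 silent modifier, 3 tandem-pore-domain and 3 auxiliary genes. Distal peaks then totalled 87, against a mean of 0.824 per gene over all coding genes. They lay near 37 of 91 members, against 42.3% of all coding genes, so the member share no longer exceeded that of all genes. The auxiliary count was 4 with the 5' start only and 11 with the longer peak list. The distal total was 96 within 25 kb, 364 within 100 kb and 291 with the longer list. It was 192 without replicate 1 and 363 without replicate 2. In the same order, the means per gene over all coding genes were 0.786, 3.25, 2.80, 1.84 and 3.59. The median centred replicate ratio was -0.32 centred on promoter peaks, -0.20 by decile of height and -0.24 scaled by summed heights. It turned to 0.0042 when centred on promoter peaks of the same decile of height, an alternative added after seeing the data, as were RefSeq starts. Within 2 kb, 4 members were gained (Kcnh4, Kcnh8, Kcnj9 and Kcnn4), and within 500 bp Kcnj4 was lost. With replicate 2 left out 11 more members had a promoter peak, and with replicate 1 left out 5 more, Kcnk6 in both cases. The member counts were then 65 and 59 of 91, against 67.5% and 64.5% of all coding genes. With the longer list the count was 67 of 91 (73.6%, against 67.7%). In these settings the member share exceeded that of all genes, by little without replicate 1. It stayed below with the other windows, the 5' start, the 50% highest peaks and an overlap of at least 50%.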

Other observations

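In the shorter peak lists several channel genes that neighbour each other differed in state, while Kcne1 and Kcne2, 67.1 kb apart, both had no promoter peak. Kcnk5 had a shared promoter peak and Kcnk16, 87.4 kb away, a peak in replicate 1 only. Kcnj2 was among the highest promoters and Kcnj16, 98.1 kb away, had no peak. Kcna2 and Kcna3 had shared peaks and Kcna10, 81.9 kb from Kcna2, a peak in replicate 1 only. Kcna1 had a shared peak (0.368 and 0.359), while Kcna6, 94.3 kb away, had one in replicate 1 only (0.381) and Kcna5 none. In the longer peak list Kcna5 (0.448 and 0.384), Kcna6 and Kcna10 had a shared peak too. The differences among these Kcna genes thus lay at low heights and depended on the peak list.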
